A study of Mus musculus with 8 samples.

Results

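Retinoic acid, made from vitamin A, is a signal that enteric neural crest cells receive while they colonize the fetal bowel. The 10 genes described here make it (*Aldh1a1*, *Aldh1a2*, *Aldh1a3*), bind it in the cytoplasm (*Crabp1*, *Crabp2*), respond to it in the nucleus (*Rara*, *Rarb*, *Rarg*) and degrade it (*Cyp26a1*, *Cyp26b1*). They were chosen by symbol for these roles, with earlier results of these data known. Each had 1 row among the 29092 genes of the mRNA count table. The cells were taken at E13.5 from the whole length of the bowel, from stomach to anus, of *Ednrb-EGFP* mouse embryos on a C57BL/6J cross, which the labels give as wild-type. GFP+ cells, the enteric neural crest-derived cells (ENCDCs), and GFP- cells, here gut cells, were sorted from the same kind of bowel, with 4 libraries of each. Both groups carried the transgene and no treatment. GFP stands for activity of *Ednrb* sequences, and the gut cells are a mixture of the remaining cell types. RNA was pooled where needed to reach 750 pg per library, so the p-values measure the spread between these libraries, which may be partly technical.

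Retinol enters cells and is oxidized to retinal in a reversible step. The ALDH1A dehydrogenases then oxidize retinal to retinoic acid. CRABP proteins carry the acid, RAR receptors paired with RXR receptors switch genes on or off according to whether it is bound, and CYP26 enzymes oxidize it for disposal. Because the signal is small and diffusible, the cells that make it and the cells that respond to it need not be the same. In the fetal bowel, retinoic acid is known to be needed for neural crest cells to colonize the gut.

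RAR-RXR pairs bind direct repeats of a 6-base half-site, classically with 5 bases between the repeats. Promoter windows from 250 bases before to 50 bases after a transcript start were taken from RefSeq (GRCm38.p6, the build of mm10), where 13 windows matched 8 of the 10 genes, the others being *Aldh1a3* and *Crabp2*. Both strands were searched for any 2 half-sites in the same direction, a half-site being AGGTCA itself or the variant AGTTCA, the variant GGGTCA or the variant GGTTCA. With a spacer of 5 bases, a repeat was in 2 of these 13 windows, those of *Rarb* and *Cyp26a1*, and in 32 of all 32851 windows (0.0974%). With a spacer of 2 bases it was in 0 of the 13 (0.268% of all windows), and with 1 base in 0 of the 13 (0.222%). *Rarb* and *Cyp26a1* are known retinoic acid targets, and the letters searched include the half-sites found in them. These shares are therefore not a test of enrichment. The 2 matches are shown because *Rarb* and *Cyp26a1*, a receptor and a clearance enzyme, lie on opposite sides of the comparison below. Capitals mark the repeat with its spacer, and both sequences are read 5′ to 3′ from the minus strand.
Rarb, chr14:16575506-16575535, minus strand: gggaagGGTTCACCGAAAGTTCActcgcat
Cyp26a1, chr19:37697770-37697799, minus strand: acaaattAGTTCACCCAAAGTTCAtcttta
The *Rarb* repeat lay 53 to 37 bases before the start, on the strand of the gene. That of *Cyp26a1* lay 32 to 16 bases before the start, on the strand opposite to the gene. A match is a run of letters and was not tested for binding here.

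The count table had been brought to one depth by the authors, with 13250893 to 13267220 reads per library. ENCDCs and gut cells separated on the first principal component (60.9% of the variance), and the second set ENCDC replicate 3 apart. Of 8 enteric neural crest markers and 8 markers of young neurons, 8 and 8 were higher in ENCDCs. *Ednrb* itself, which drives the reporter, had 38059 ± 2815 reads in ENCDCs and 2557 ± 145 in gut cells (mean ± SD of 4 libraries), so it was not at 0 outside the GFP+ gate. Genes of other bowel cells were detected in the ENCDC libraries at low levels. Of 8 mesenchyme markers 8 were lower in ENCDCs, with a summed level of 2881 to 20295 reads against 150792 to 199314 in gut cells. Of 7 smooth muscle markers 7 were lower, at 996 to 7625 against 42565 to 51946. Of 7 mesothelium markers 6 were lower, at 94 to 355 against 2450 to 4342, and *Msln* did not pass the test. Also lower were 7 of 7 epithelium markers, 6 of 6 macrophage markers, 7 of 7 erythroid markers and 3 of 6 endothelium markers, with 1 endothelium marker, *Kdr*, higher. No marker on these lists was at 0 in every ENCDC library. The mesenchyme, smooth muscle and mesothelium sums were highest in ENCDC replicate 3, which led for 7 of 8, 7 of 7 and 4 of 7 of their genes.

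The question asked of the 10 genes was which of them differed between ENCDCs and the other cells of the bowel. The genes of retinoic acid synthesis, binding and clearance were mostly lower in ENCDCs, and 2 of the 3 receptors were higher. All 10 passed the filter on low counts in both groups, and all 10 were called at an adjusted p under 0.05 (edgeR), 3 higher in ENCDCs (*Aldh1a3*, *Rara*, *Rarb*) and 7 lower. Over all 18866 genes tested, 37.9% were called, 17.0% higher and 20.9% lower. Under 15 alternative fits, 3 of the 10 stayed higher and 5 to 7 lower. *Crabp2*, *Rarg* and *Cyp26b1* lost their calls in some of these fits. The libraries of the 2 groups did not overlap for 9 of the 10 genes, against 37.3% of all genes tested, and the exception was *Crabp2*. The median log2 fold change of the 10 genes was -1.39, and that of all genes tested was -0.041. In bulk libraries, fewer cells of a type and less RNA per cell cannot be told apart, so each difference is one of the summed RNA of the sorted cells.

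**Figure D1:**
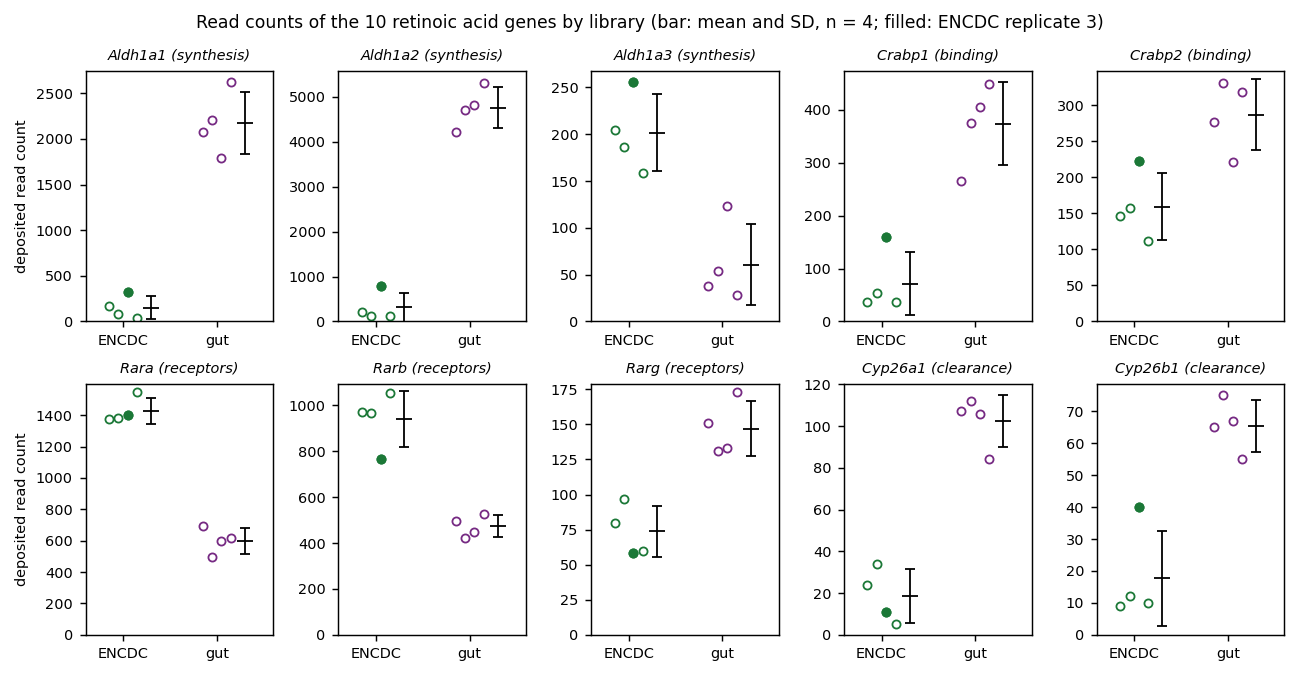
Deposited read counts (vertical axis, from 0) of the 10 retinoic acid genes in 4 ENCDC libraries (green) and 4 gut libraries (purple), with the mean and SD beside the points and ENCDC replicate 3 filled. *Rara*, *Rarb* and *Aldh1a3* sit higher in every ENCDC library than in any gut library, and the *Crabp2* libraries overlap, with 222 reads in ENCDC replicate 3 and 221 in gut replicate 3.

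*Aldh1a2* (chr9:71215789-71296243, plus strand, mm10) encodes RALDH2, the main retinoic acid-synthesizing enzyme of early embryos. It had 217, 126, 783 and 120 reads in ENCDC replicates 1 to 4, and 4223, 4702, 4809 and 5319 in gut replicates 1 to 4. The gut libraries were all far above the ENCDC libraries, among which replicate 3 was the highest. The means were 311.5 ± 317.5 and 4763 ± 449.7 (SD, n = 4). *Aldh1a2* was 14.9-fold lower in ENCDCs (95% interval 6.63 to 33.4), a log2 fold change of -3.89 (SE 0.53, adjusted p = 1.67e-04 from edgeR).

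*Aldh1a1* (chr19:20492715-20643465, plus strand), a second retinal dehydrogenase, had 168, 77, 318 and 37 reads in the ENCDC libraries and 2071, 2208, 1795 and 2618 in the gut libraries. As with *Aldh1a2*, replicate 3 was the highest ENCDC library and replicate 4 the lowest. It was 14.1-fold lower in ENCDCs (95% interval 6.66 to 29.7), a log2 fold change of -3.81 (SE 0.49, adjusted p = 1.10e-04 from edgeR).

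The third paralogue went the other way. *Aldh1a3* (chr7:66390890-66427517, minus strand), which also makes retinoic acid from retinal, had 205, 186, 256 and 159 reads in the ENCDC libraries and 38, 54, 123 and 28 in the gut libraries. The lowest ENCDC library was above the highest gut library, which was gut replicate 3. *Aldh1a3* was 3.42-fold higher in ENCDCs (95% interval 1.77 to 6.59), a log2 fold change of 1.77 (SE 0.43, adjusted p = 0.0075 from edgeR). With 1 library left out in turn, the log2 fold change ran from 1.54 to 2.38, the highest without gut replicate 3. The largest adjusted p in these fits was 0.0294 (edgeR).

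Read counts grow with transcript length, so paralogues were compared per kb of exon. In gut cells *Aldh1a2* held 82.3 ± 1.48% of the ALDH1A counts per kb and *Aldh1a3* 0.522 ± 0.373% (SD, n = 4). In ENCDCs *Aldh1a2* held 58.7 ± 10.7% and *Aldh1a3* 27.4 ± 11.5%. The *Aldh1a3* share was 25.5, 36.1, 11.9 and 36.3% in ENCDC replicates 1 to 4 and at most 1.06% in a gut library. The *Aldh1a1* share was 13.8 ± 4.75% in ENCDCs and 17.2 ± 1.85% in gut cells, and these ranges overlapped. The family as a whole had 212 ± 173 counts per kb in ENCDCs and 2557 ± 245 in gut cells, so *Aldh1a3* was a larger share of a much smaller total.

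*Crabp1* and *Crabp2* encode the cytoplasmic retinoic acid-binding proteins. CRABP2 is known to hand retinoic acid to the receptors, and CRABP1 has been linked to its turnover. *Crabp1* (chr9:54764748-54773110, plus strand) had 37, 53, 160 and 36 reads in the ENCDC libraries and 265, 375, 406 and 448 in the gut libraries. The groups did not overlap, and ENCDC replicate 3 was again the highest. *Crabp1* was 5.07-fold lower in ENCDCs (95% interval 2.55 to 10.1), a log2 fold change of -2.34 (SE 0.45, adjusted p = 1.89e-03 from edgeR).

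*Crabp2* (chr3:87948666-87953376, plus strand) had 146, 158, 222 and 111 reads in the ENCDC libraries and 277, 331, 221 and 319 in the gut libraries. Its groups met at replicate 3 of each, and the difference was the smallest in size of the 10. *Crabp2* was 1.75-fold lower in ENCDCs (95% interval 1.20 to 2.53), a log2 fold change of -0.80 (SE 0.24, adjusted p = 0.0235 from edgeR). The edgeR call did not hold (adjusted p = 0.0575) when ENCDC replicate 1 was left out, nor when ENCDC replicate 4 (0.0541), gut replicate 2 (0.0591) or gut replicate 4 (0.0640) was. *Crabp1* held 67.8 ± 6.04% of the CRABP counts per kb in gut cells and 38.6 ± 10.8% in ENCDCs (mean ± SD of 4 libraries). In ENCDC replicates 1 to 4 that share was 29.5, 35.6, 54.3 and 34.8%, below the gut range of 61.2 to 75.2% in each.

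*Rara* (chr11:98927818-98974942, plus strand) encodes the most widely expressed retinoic acid receptor. It had 1379, 1380, 1403 and 1547 reads in the ENCDC libraries and 692, 494, 595 and 617 in the gut libraries. The libraries of each group lay close together and the groups were well apart, with means of 1427 ± 80.6 and 599.5 ± 81.7 (mean ± SD of 4 libraries). *Rara* was 2.46-fold higher in ENCDCs (95% interval 2.05 to 2.97), a log2 fold change of 1.30 (SE 0.12, adjusted p = 1.03e-05 from edgeR).

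*Rarb* (chr14:16430839-16819156, minus strand) encodes a receptor whose own gene is a classic retinoic acid target. It had 970, 966, 767 and 1055 reads in the ENCDC libraries and 496, 420, 450 and 528 in the gut libraries. Here ENCDC replicate 3 was the lowest of its group and was still above every gut library. *Rarb* was 2.05-fold higher in ENCDCs (95% interval 1.66 to 2.55), a log2 fold change of 1.04 (SE 0.14, adjusted p = 1.61e-04 from edgeR).

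Of the exon sequence of *Rarb*, 1793 bases (34.06%) also lie in exons of *Top2b*, a topoisomerase gene on the opposite strand that was looked at after its values were seen. The library kits do not keep the strand, so reads from that stretch cannot be told apart. Whether such reads were counted for *Rarb*, for *Top2b* or for neither is not given in the sources used here, which bears on the *Rarb* count, its level per kb and its share of the family. *Top2b* had 7693, 6739, 6697 and 7467 reads in the ENCDC libraries and 5045, 4632, 5566 and 4825 in the gut libraries, a log2 fold change of 0.56 (SE 0.088, adjusted p = 4.60e-04 from edgeR). The *Rarb* count was 11.5 to 14.3% of the *Top2b* count in ENCDCs and 8.08 to 10.9% in gut cells, ranges that did not overlap. How many *Rarb* reads came from *Top2b* was not tested. A further 227 exon bases are shared with an antisense gene, *Gm48162*.

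*Rarg* (chr15:102234938-102257517, minus strand), the third receptor, had 80, 97, 58 and 60 reads in the ENCDC libraries and 151, 131, 133 and 173 in the gut libraries. The groups did not overlap, in the direction opposite to *Rara* and *Rarb*. *Rarg* was 1.93-fold lower in ENCDCs (95% interval 1.25 to 2.96), a log2 fold change of -0.95 (SE 0.28, adjusted p = 0.0218 from edgeR). With gut replicate 1 left out, the edgeR call did not hold (adjusted p = 0.0520), nor with gut replicate 4 left out (0.0684).

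The RAR family had 523 ± 36.1 counts per kb in ENCDCs and 262 ± 29.7 in gut cells (mean ± SD of 4 libraries). *Rara* was the largest part of it in both, at 62.6 ± 2.92% in ENCDCs and 52.4 ± 2.43% in gut cells. The *Rarg* share was 3.32 ± 0.840% in ENCDCs, from 2.48 to 4.36%, and 13.2 ± 1.04% in gut cells, from 12.3 to 14.4%. The *Rarb* share was 34.0 ± 2.49% and 34.4 ± 1.43%, and its ranges overlapped.

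**Figure D2:**
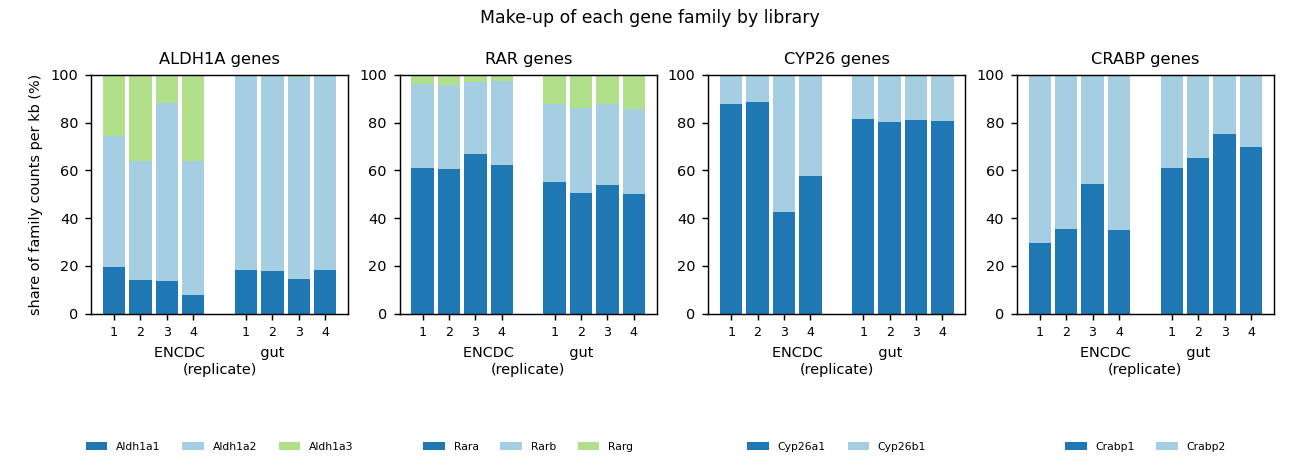
Share of each gene (%) in the counts per kb of exon of its family, with 1 stacked bar per library, for 4 ENCDC and 4 gut replicates. *Aldh1a3* is at most 1.06% of the ALDH1A bar in a gut library and 11.9% or more in an ENCDC library, and *Rarg* is at most 4.36% of the RAR bar in an ENCDC library and 12.3% or more in a gut library.

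*Cyp26a1* and *Cyp26b1* encode the enzymes that oxidize retinoic acid and so limit exposure to it. Both were at low counts in ENCDCs. *Cyp26a1* (chr19:37697798-37701536, plus strand), itself known to be induced by retinoic acid, had 24, 34, 11 and 5 reads in the ENCDC libraries and 107, 112, 106 and 84 in the gut libraries. Each gut library was above each ENCDC library, and replicates 3 and 4 were the lowest ENCDC libraries. *Cyp26a1* was 5.32-fold lower in ENCDCs (95% interval 2.34 to 12.1), a log2 fold change of -2.41 (SE 0.54, adjusted p = 4.56e-03 from edgeR).

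*Cyp26b1* (chr6:84571414-84593908, minus strand) had 9, 12, 40 and 10 reads in the ENCDC libraries and 65, 75, 67 and 55 in the gut libraries. ENCDC replicate 3 stood apart from the other 3 ENCDC libraries and was still below the gut libraries. *Cyp26b1* was 3.57-fold lower in ENCDCs (95% interval 1.53 to 8.29), a log2 fold change of -1.83 (SE 0.55, adjusted p = 0.0227 from edgeR). Leaving out ENCDC replicate 1 ended the edgeR call (adjusted p = 0.0552), as did leaving out ENCDC replicate 2 (0.0553) or 4 (0.0524), or gut replicate 2 (0.0543) or 3 (0.0510). Without ENCDC replicate 3 the log2 fold change was -2.59 (adjusted p = 6.36e-04). The CYP26 genes together had 12.6 ± 6.19 counts per kb in ENCDCs and 63.8 ± 7.73 in gut cells (mean ± SD of 4 libraries), and *Cyp26a1* held 80.8 ± 0.658% of them in gut cells. In ENCDC replicates 1 to 4 its share was 87.8, 88.4, 42.6 and 57.4%, a spread that rests on few reads.

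ENCDC replicate 3 was the highest ENCDC library for 6 of the 10 genes, *Aldh1a1*, *Aldh1a2*, *Aldh1a3*, *Crabp1*, *Crabp2* and *Cyp26b1*. It also had the fewest genes with a count, 17953, against 20070, 19300 and 19123 in ENCDC replicates 1, 2 and 4. Whether this bears on the 10 genes was not tested. As a percentage of the gut mean, *Aldh1a2* was at 4.56, 2.65, 16.4 and 2.52% in ENCDC replicates 1 to 4. *Aldh1a1* was at 7.73, 3.54, 14.6 and 1.70%. Markers of other bowel cells differed from list to list in the same libraries. The summed mesenchyme markers were at 4.74, 1.66, 11.7 and 2.55% of their gut mean. The summed smooth muscle markers were at 5.50, 3.71, 15.7 and 2.05%, and the mesothelium markers at 3.15, 3.02, 11.4 and 3.12%. Replicate 3 was the highest for each of these sums, and for the epithelium sum, at 9.52, 14.0, 17.0 and 15.3%. It led for 2 of the 7 epithelium genes, and their median was highest in replicate 2 (7.41, 15.2, 12.6 and 12.3%). The macrophage markers, at 1.39, 0.739, 1.98 and 1.01%, and the erythroid markers, at 0.711, 1.45, 1.29 and 0.555%, were lower than *Aldh1a1* and *Aldh1a2* in each library. The endothelium sum was at 132, 81.6, 80.9 and 128%, lowest in replicate 3, but most of its reads came from *Kdr*. *Kdr* alone was at 315, 195, 194 and 318% of its gut mean. The median over the 6 endothelium markers was 32.7, 27.7, 37.2 and 25.7%, highest in replicate 3. The part of such cells in the ENCDC counts of these genes was not tested. *Crabp1* lay above the mesenchyme, smooth muscle and mesothelium sums in each library, at 9.91, 14.2, 42.8 and 9.64%. *Rarg*, at 54.4, 66.0, 39.5 and 40.8%, was lowest in replicate 3. *Cyp26a1*, at 23.5, 33.3, 10.8 and 4.89%, was highest in replicate 2. Without ENCDC replicate 3, the log2 fold change was -4.89 for *Aldh1a2* (adjusted p = 1.07e-08 from edgeR), -4.48 for *Aldh1a1* and -3.10 for *Crabp1*. These were larger in size than with all 8 libraries.

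**Figure D3:**
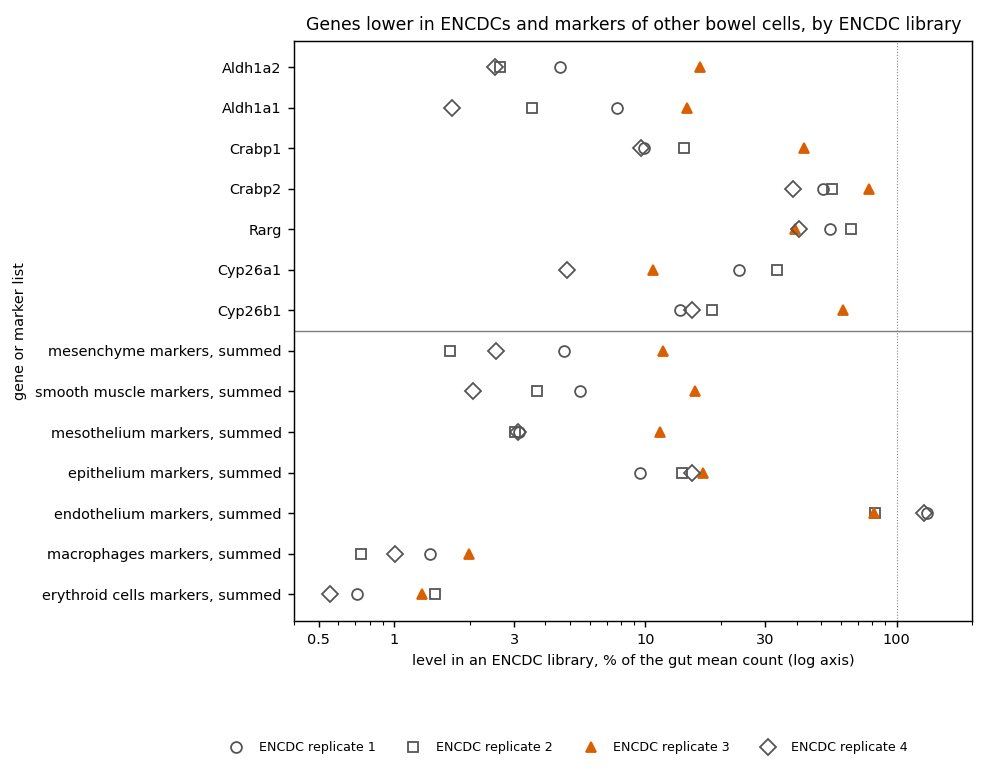
Level in each ENCDC library as a percentage of the gut mean count (horizontal log axis) for the 7 genes that were lower in ENCDCs and for the summed markers of 7 other kinds of bowel cell. ENCDC replicate 3 (orange triangles) is the highest of the 4 for *Aldh1a2*, *Aldh1a1*, *Crabp1*, *Crabp2*, *Cyp26b1* and the mesenchyme, smooth muscle, mesothelium, epithelium and macrophage sums, and the lowest for *Rarg* and the endothelium sum. Most reads of the endothelium sum are from *Kdr*, and the median over the endothelium markers was highest in replicate 3.

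Per kb of exon, the order of mean levels in gut cells was *Aldh1a2* (2104 ± 199 counts per kb), *Crabp1* (465.7 ± 97.6), *Aldh1a1* (440 ± 69.4), *Crabp2* (217 ± 37.6), *Rara* (137 ± 18.7), *Rarb* (89.9 ± 9.10), *Cyp26a1* (51.6 ± 6.28), *Rarg* (34.5 ± 4.58), *Aldh1a3* (13.2 ± 9.28) and *Cyp26b1* (12.2 ± 1.54; SD, n = 4). Neighbours in that order had ranges that overlapped for *Crabp1* and *Aldh1a1*, and for *Aldh1a3* and *Cyp26b1*. In ENCDCs the order was *Rara* (327 ± 18.5), *Rarb* (178 ± 23.2), *Aldh1a2* (137.6 ± 140), *Crabp2* (120.5 ± 35.1), *Crabp1* (89.2 ± 74.2), *Aldh1a3* (43.6 ± 8.87), *Aldh1a1* (30.4 ± 25.3), *Rarg* (17.3 ± 4.32), *Cyp26a1* (9.33 ± 6.57) and *Cyp26b1* (3.32 ± 2.78). There, the range of *Rara* was clear of that of *Rarb*, and all other neighbours overlapped. The receptors *Rara* and *Rarb* led the order of means in ENCDCs, and the synthetic enzyme *Aldh1a2* led it in gut cells. *Aldh1a2* reached 346 counts per kb in ENCDC replicate 3, within the range of *Rara* (316 to 354). Both orders depend on the length used. In gut counts not divided by length, the means of *Rara* (599.5 reads) and *Rarb* (473.5) lay above that of *Crabp1* (373.5).

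The rest of the pathway was followed through 5 lists with 52 genes, of which 51 had a row in the table and 43 were tested. Of those 43, 11 were higher in ENCDCs, 15 were lower and 17 were not called, and their median log2 fold change was -0.27. The filter can be met through 1 group, and 4 of the 43 (*Stra6l*, *Lrat*, *Adh1* and *Cdx1*) met it through the gut libraries alone, so those could be called lower and not higher. Among the other 39, 11 were higher and 12 lower, with a median of -0.13, and these 23 calls are to be read beside the 37.9% called over all genes tested. That 37.9%, here and for the lists below, includes genes that met the filter through 1 group. No share limited to genes that met it in both groups was computed.

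Among carriers and uptake proteins for retinol, 1 of 6 tested genes was higher and 3 were lower (median log2 fold change -1.81). Over all genes tested, 37.9% were called. Without *Stra6l* and *Lrat*, which met the filter through the gut libraries alone, 1 of 4 was higher and 2 were lower (median -0.62). *Rbp4*, the secreted retinol carrier, fell by 2.11 on the log2 scale (adjusted p = 1.03e-03 from edgeR), and *Ttr*, its partner in plasma, fell by 1.51 (adjusted p = 8.59e-03). *Lrat*, which makes the storage esters of retinol, had 1 read in all ENCDC libraries together and 253 in the gut libraries, a ratio of 253 (exact 95% interval 45.0 to 10032, counting error only). *Stra6*, the receptor that takes retinol up from RBP4, was chosen for mention after its values were seen. It had 272, 243, 765 and 263 reads in the ENCDC libraries and 248, 355, 393 and 324 in the gut libraries, with a log2 fold change of 0.27 (95% interval -0.51 to 1.04, adjusted p = 0.594). Its sign turned to -0.29 without ENCDC replicate 3.

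Among enzymes that interconvert retinol and retinal, 2 of 10 tested genes were higher and 4 were lower (median -0.47). The share called over all genes tested was 37.9%. Without *Adh1*, which met the filter through the gut libraries alone, 2 of 9 were higher and 3 were lower (median -0.43). *Rdh10*, the main retinol dehydrogenase of embryos, had 172, 110, 261 and 108 reads in the ENCDC libraries and 3644, 3651, 3164 and 3276 in the gut libraries. It resembled *Aldh1a2*, the next enzyme of the route, in being far higher in every gut library, and it was 20.4-fold lower in ENCDCs (log2 fold change -4.35, SE 0.25, adjusted p = 2.89e-07 from edgeR). *Dhrs3*, which reduces retinal back to retinol, had 1190, 1316, 1437 and 976 reads in the ENCDC libraries and 487, 430, 568 and 486 in the gut libraries. It was 2.58-fold higher (log2 fold change 1.37, SE 0.14, adjusted p = 2.26e-05 from edgeR). *Adh5*, a broadly expressed alcohol dehydrogenase, rose by 0.42 on the log2 scale (adjusted p = 2.32e-03), and *Dhrs4* fell by 0.89 (adjusted p = 6.68e-04). *Rdh14* was also lower. *Adh1* had 0 reads in the ENCDC libraries and 6, 7, 27 and 34 in the gut libraries, at least 24.7-fold lower with ENCDCs set at a floor of 3 reads over the group.

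RXR receptors pair with the RARs on DNA. Of the 5 tested genes on the list of RXR partners, CYP26C1 and the FABP5-PPARD branch, 1 was higher and 1 was lower (median -0.29). These calls stand beside 37.9% called over all genes tested. *Rxra* and *Rxrb*, both chosen for mention after their values were seen, were not called. The *Rxra* log2 fold change was -0.29 (95% interval -0.62 to 0.039, adjusted p = 0.156 from edgeR), and without ENCDC replicate 4 it was -0.45 (adjusted p = 0.0194). For *Rxrb* the log2 fold change was 0.076 (95% interval -0.20 to 0.35, adjusted p = 0.671 from edgeR). *Rxrg* was lower, with 36, 22, 26 and 11 reads in the ENCDC libraries and 76, 47, 95 and 94 in the gut libraries (log2 fold change -1.67, SE 0.46, adjusted p = 0.0156 from edgeR). With a replicate block in the fit, the *Rxrg* call did not hold (adjusted p = 0.0503 from edgeR). *Fabp5*, a fatty acid-binding protein that can carry retinoic acid to another receptor, PPARD, had 2769 ± 283 reads in ENCDCs and 978 ± 151 in gut cells (mean ± SD of 4 libraries). It was 2.93-fold higher in ENCDCs, the direction opposite to *Crabp1* and *Crabp2* (log2 fold change 1.55, SE 0.13, adjusted p = 3.38e-06 from edgeR).

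Of 8 coregulators of these receptors tested, 1 was higher, 1 was lower and 6 were not called (median -0.16), beside 37.9% called over all genes. *Nrip1*, a corepressor that binds ligand-bound receptors, rose by 0.63 on the log2 scale (adjusted p = 3.14e-03 from edgeR). *Ncoa3*, a coactivator, fell by 0.88 (adjusted p = 8.98e-04), and 154 of its exon bases are shared with *Sulf2* on the opposite strand.

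Genes known to respond to retinoic acid were divided, with 6 higher, 6 lower and 2 not called of 14 tested (median 0.70). Over all genes tested, 37.9% were called. Without *Cdx1*, which met the filter through the gut libraries alone, 6 were higher and 5 lower of 13 (median 0.87). Several of the 14 also mark cell lineages of the bowel. *Ret*, the GDNF receptor that marks ENCDCs and stands on the crest marker list too, had 12236 ± 2551 reads in ENCDCs and 134 ± 32.2 in gut cells (mean ± SD of 4 libraries). *Hoxb5*, a vagal Hox gene, had 1751, 2110, 2031 and 2184 reads in the ENCDC libraries and 180, 211, 198 and 210 in the gut libraries (log2 fold change 3.39, SE 0.12, adjusted p = 9.62e-09 from edgeR). *Hoxa4*, *Hoxb4* and *Nr2f1* were also higher. *Meis2*, a homeobox cofactor, had 248, 143, 419 and 191 reads in the ENCDC libraries and 2800, 2379, 2483 and 3085 in the gut libraries (log2 fold change -3.38, SE 0.28, adjusted p = 3.58e-06 from edgeR). Its paralogue *Meis1* fell by 0.70 on the log2 scale (adjusted p = 5.76e-04), and *Nr2f2* and *Tgm2* were also lower. *Cdx1* had 3 reads in the ENCDC libraries together and 48 in the gut libraries, a ratio of 16.0 (exact 95% interval 5.16 to 80.3, counting error only), and its libraries overlapped. With 1 library left out in turn, the call of *Cdx1* was lost in 6 of 8 fits and that of *Nr2f1* in 3 of 8.

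**Figure D4:**
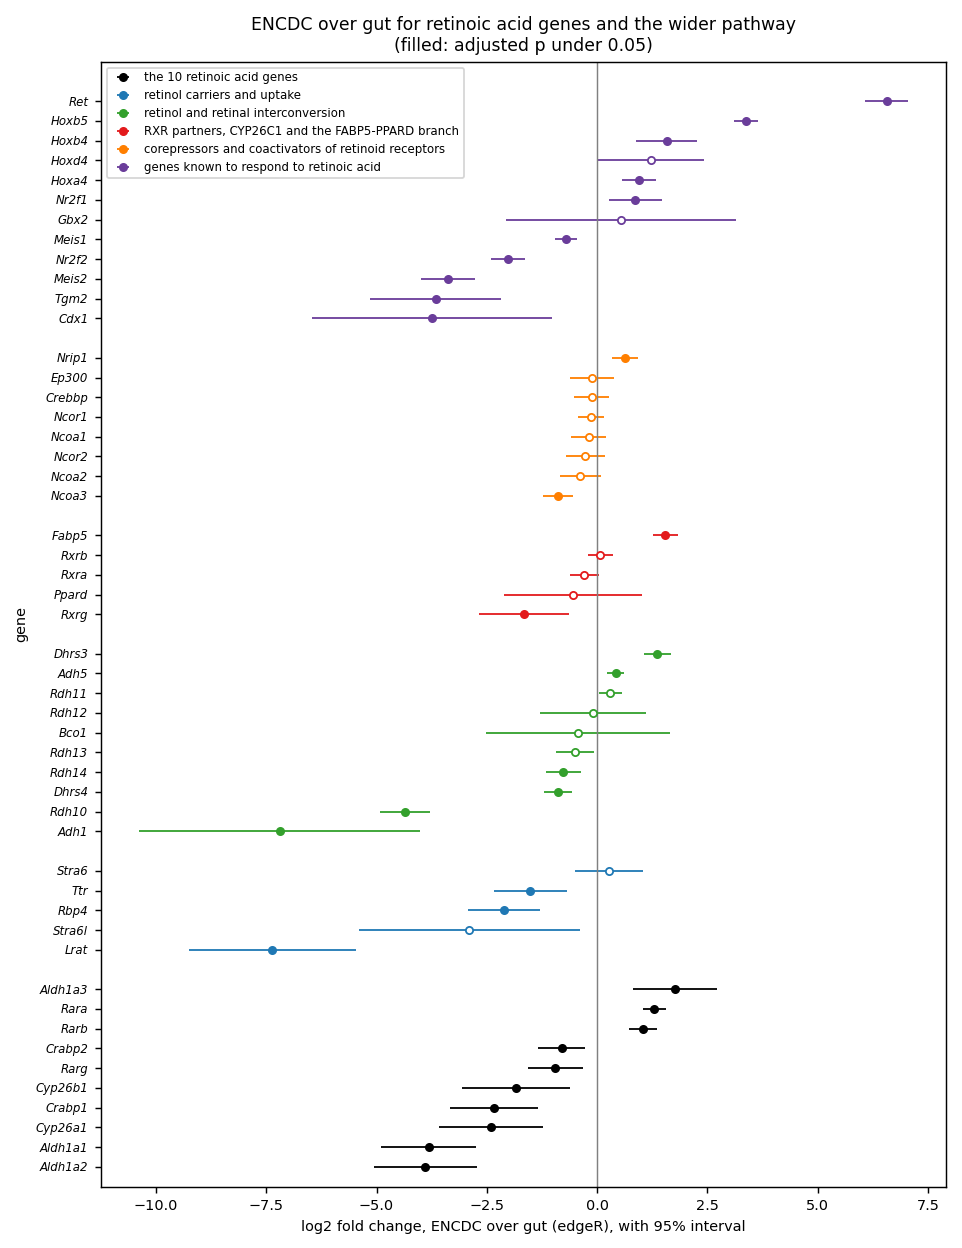
Log2 fold change, ENCDC over gut (horizontal axis, edgeR, with 95% interval) for the 10 retinoic acid genes (black) and 40 of the 43 tested genes of 5 pathway lists (colours), filled where the adjusted p was under 0.05. *Aldh1a2* (-3.89), *Aldh1a1* (-3.81) and *Rdh10* (-4.35) lie to the left, and *Dhrs3* (1.37), *Rara* (1.30) and *Rarb* (1.04) to the right. The plotted values of *Lrat* and *Adh1*, with 1 read and 0 reads in the ENCDC libraries, depend on the prior count of the fit.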

How the data were processed

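GFP+ and GFP- cells were sorted from dissociated E13.5 *Ednrb-EGFP* bowel, and cDNA libraries were made with kits that do not keep strand. Per the labels and the study's methods, the authors used STAR 2.4.2a for alignment to mm10 and PORT for normalization, and the deposited values are the minimum normalized read counts per gene. The deposited counts were taken as mRNA read counts, because they are whole numbers with nearly equal library totals, although the design text speaks of small RNAs and CPM. The annotation release behind them is not given in the sources used here. GENCODE mouse M21 gave positions, exon lengths and overlaps, and it held 29035 of the 29092 gene IDs. No 30-base stretch was shared between transcripts of different genes of the 10.

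Columns were assigned to 4 ENCDC and 4 gut replicates by name. A gene was tested if, in 1 or both groups, its mean count reached 3 and 3 or more of the 4 libraries were above 0. Testing used edgeR 4.0.16 in R 4.3.3 (TMM factors, quasi-likelihood F test, Benjamini-Hochberg adjustment over all tested genes, called under 0.05), where the authors used voom and limma. Printed counts are as deposited. The SE is the log2 fold change divided by the square root of F. A group total of 1 to 3 reads was given an exact 95% interval for its ratio. Alternatives were voom with limma 3.58.1, DESeq2 1.42.0, other factors and filters, a replicate block and leaving out each library. The fits were checked on simulated counts with 200 changed genes, in directions drawn at random. Many more genes differ in the data, so this check does not cover normalization or error rates there. Tables and figures used Python 3.11.15, pandas 2.3.3 and matplotlib 3.10.9.

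The 10 genes, the lists and the tests were chosen with earlier results of these data known. Values were given for up to 4 called genes per list with the highest mean count and for those called against most of their list, and *Top2b*, *Stra6*, *Rxra* and *Rxrb* were added after their values were seen. A few listed genes enter the counts of their lists and are not reported by name. Small RNA libraries were not analysed here.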

Additional observations from a re-analysis of the deposited data

Results flagged for a closer look

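A library was marked where its gap to the nearest of the 4 libraries of its group, divided by their range, was above Dixon's 95% critical value for groups of 4. This was the case in 9 of 87 groups examined. The family shares of *Aldh1a1*, *Rarg*, *Cyp26b1* and *Crabp2* are among the 87 but were not open to marking, so this rate is understated. Chance marks about 1 in 20 of the groups open to marking. ENCDC replicate 3 stood high for *Aldh1a2* (783 reads), *Crabp1* (160), *Cyp26b1* (40) and *Stra6* (765), and for the summed mesothelium markers (11.4% of the gut mean). In the same library *Rarb* held a low share of the RAR counts per kb (30.3%). ENCDC replicate 4 stood high for *Rara* (1547 reads) and *Ncoa3* (557). *Lrat* had 1 read in ENCDC replicate 1 and 0 in the other 3 ENCDC libraries. What sets these libraries apart was not tested.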

How the results depend on the processing

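Under 15 alternatives to the main edgeR fit, 3 of the 10 genes stayed higher and 5 to 7 lower, and the 10 log2 fold changes kept their signs. Leaving out 1 library gave 5 to 7 lower genes, 2614 to 3527 higher and 3280 to 4213 lower genes over the whole table, and 10 to 12 higher and 13 to 15 lower genes on the pathway lists. The deviations of same-numbered libraries correlated at -0.017 to 0.0146, and 1 of 4 ENCDC libraries correlated best with its own number. Libraries with different numbers correlated at -0.045 to 0.053. No pairing by number was seen, but with all values near 0 the correlations cannot show that the samples were unpaired. With a replicate block, 5933 genes were called in place of 7158, and, of the genes given with values, *Crabp2* (adjusted p = 0.0618 from edgeR), *Rarg* (0.0645) and *Rxrg* (0.0503) lost their calls. With 1 library left out, the log2 fold change ran from -0.29 to 0.43 for *Stra6* and from -0.0023 to 0.14 for *Rxrb*, in both below 0 without ENCDC replicate 3 and in neither called. With counts not divided by length, the shares were 41.2% for *Aldh1a2* in ENCDCs and 68.1% in gut cells, 58.6% and 49.1% for *Rara*, 38.4% and 38.9% for *Rarb*, and, in gut cells, 61.0% for *Cyp26a1* and 56.3% for *Crabp1*. Per kb of coding length they were 41.7% and 67.4% for *Aldh1a2*, 37.0% and 37.4% for *Rarb*, 61.7% for *Cyp26a1* and 56.5% for *Crabp1*, so shares depend on which length is used. Low counts limit *Cyp26a1* and *Cyp26b1* in ENCDCs, at 5 to 40 reads per library.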
